A study of Ogataea haglerorum with 3 samples.

Results

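The genes described here are the 320 annotated genes of over 3000 bases among the 5345 genes measured in Ogataea haglerorum (5.99% of genes), a methylotrophic budding yeast. They were chosen by their annotated length alone, with no measured value, and are called long genes below. They are set against the 4741 genes of over 400 and up to 3000 bases, called mid-length genes, and the remaining 284 genes are of at most 400 bases. All samples belong to 1 group: haploid cells of genotype Phaff 81-453.3, taken in log phase at an OD600 of 0.8 to 1.2 from YPD cultures with 2% glucose at 30 °C, with no second strain, treatment or time. Polyadenylated RNA was sequenced as 3 libraries, numbered 1, 4 and 5 in the labels. The labels leave it unsaid whether these were separate cultures. The p-values and the SDs over libraries therefore measure only the spread between libraries, which may be technical. SDs over genes are named as such.

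In budding yeasts, long genes encode large proteins, among them motor proteins, multi-domain synthases, large kinases and scaffolds of ribosome assembly, transcription and membrane transport. Transcripts of the highest level in growing yeast, such as those of ribosomal proteins and glycolytic enzymes, come mostly from short genes. The deposited IDs are locus tags that neither the files nor the reference table pair with a name or product, so no function is given to any gene below. Levels are the authors' TPM, which divides counts by gene length and scales each library to a fixed total, and only TPM is used to compare levels between genes.

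Long genes had a median annotated length of 3707 bases, with quartiles of 3279 and 4537 bases, against a median of 1188 bases in mid-length genes. They covered 17.6% of all annotated gene bases. A length that is a multiple of 3, as in a coding sequence without introns, was found in 297 long genes (92.8%) and 4119 mid-length genes (86.9%). The annotated length therefore lies close to a coding length, and reads outside it were not counted. Lengths thinned out quickly above the bound, with 193 genes of up to 4000 bases, 79 of over 4000 and up to 5000 bases, and 48 of over 5000 bases.

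A long transcript gives more fragments than a short one at the same level, and long genes were measured with many reads. Their median count was 6037, 8056 and 6642 in libraries 1, 4 and 5, against 2111, 2738 and 2109 in mid-length genes. The libraries held 34047362, 44734719 and 34526996 counts over all genes. No long gene was at 0 counts in any library, against 67 mid-length genes (1.41%) that were at 0 in at least 1 library. All 3 libraries reached 10 counts for 319 long genes (99.7%) and 4596 mid-length genes (96.9%).

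Long genes were expressed at a middling level, with less variation from gene to gene than mid-length genes. Their median was 46.6, 46.2 and 48.7 TPM in libraries 1, 4 and 5, against 52.4, 50.9 and 51.7 TPM in mid-length genes. The medians averaged 47.2 ± 1.33 TPM for long genes and 51.7 ± 0.74 TPM for mid-length genes (SD, n = 3 libraries). On the log2(TPM + 1) scale, which understates differences of low genes, the long median differed from the mid-length median by -0.17, -0.14 and -0.09, a mean of -0.13 ± 0.04 (SD, n = 3). The difference had the same sign in each library, but 3 libraries cannot give a two-sided exact permutation p below 0.25, which was the value found. It also depended on the shorter genes of the comparison: against genes of over 1000 and up to 3000 bases alone it was -0.02.

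The range of levels was much narrower in long genes than in all mid-length genes together. The middle 50% of long genes spanned 25 to 83.8 TPM, a 3.35-fold range, against 21.8 to 123 TPM in mid-length genes, a 5.67-fold range. From the 10th to the 90th percentile the range was 13.1-fold in long genes and 73.5-fold in mid-length genes. The SD over genes of log2(TPM + 1) was 1.58 in long genes and 2.29 in mid-length genes. In the 669 mid-length genes of 2001 to 3000 bases that SD was 1.77, with quartiles of 21.9 and 84.1 TPM. The mid-length genes nearest in length were thus closer in spread to long genes than the whole class was. A mean level of 10 to 200 TPM was found for 272 long genes (85%) and 3275 mid-length genes (69.1%). No test over genes was made for these spreads, since genes are not replicates.

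**Figure D1:**
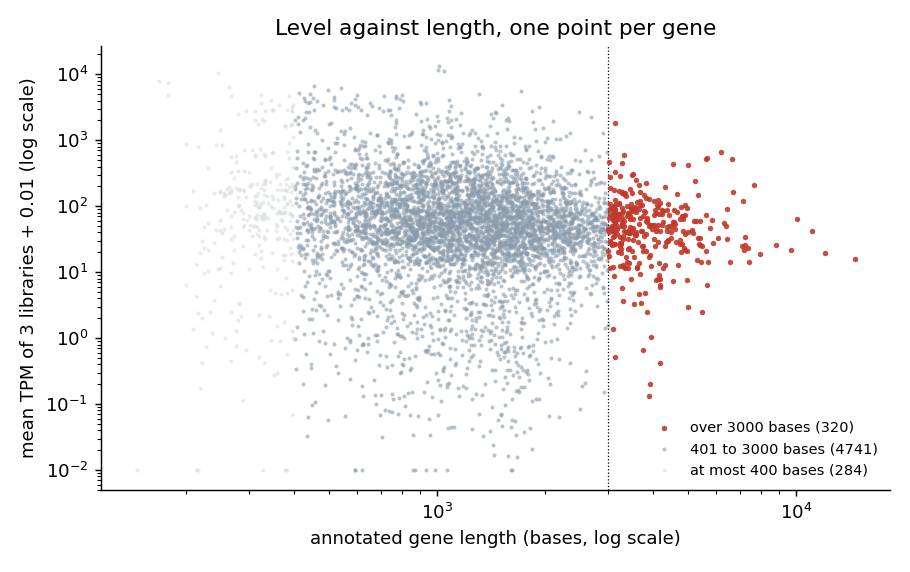
Mean TPM of 3 libraries (plus 0.01, log scale) against annotated gene length (log scale), 1 point per gene; red points are the 320 long genes, blue-grey the 4741 mid-length genes and pale grey the 284 shorter genes, and the dotted line marks 3000 bases. The cloud narrows to the right, with a 13.1-fold range from the 10th to the 90th percentile in long genes and 73.5-fold in mid-length genes. The lowest long gene lay at 0.124 TPM and the highest at 1834 TPM, while mid-length genes reached 13300 TPM. Extremes widen with the number of genes, so they do not measure the narrowing.

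Few long genes were low and few were high. A mean under 5 TPM was found for 15 long genes (4.69%) and 512 mid-length genes (10.8%), and one under 1 TPM for 5 long genes (1.56%) and 242 mid-length genes (5.10%). By library, the share under 5 TPM was 4.69%, 4.06% and 4.69% in long genes, against 10.6%, 10.6% and 11% in mid-length genes. At the upper end, 58 long genes (18.1%) and 1442 mid-length genes (30.4%) had over 100 TPM. Only 1 long gene exceeded 1000 TPM, against 146 mid-length genes (3.08%). The shares of the length classes did not overlap between libraries for either bound: over 100 TPM lay 16.9% to 18.8% of long genes and 30.1% to 30.5% of mid-length genes.

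**Figure D2:**
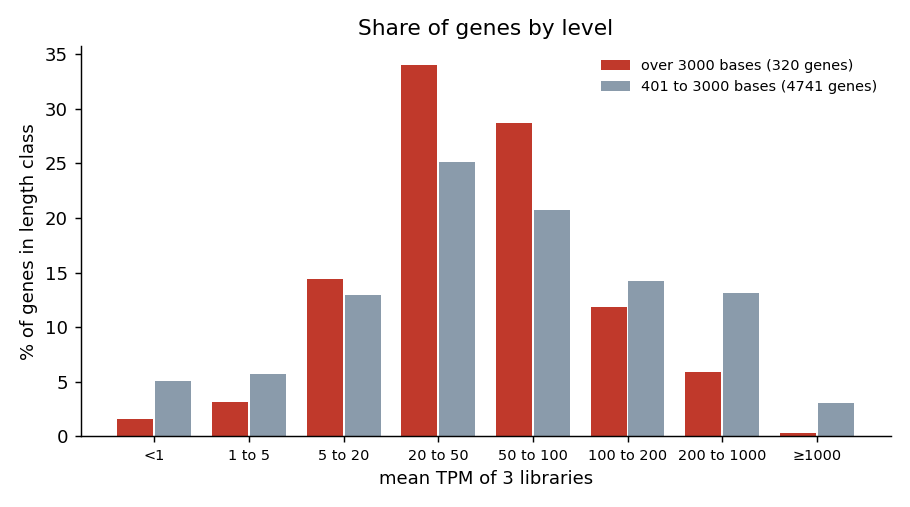
Percentage of genes in each range of mean TPM, with long genes (red, left bar of each pair) and mid-length genes (grey, right bar). Long genes gathered at 20 to 100 TPM, with 34.1% at 20 to 50 TPM and 28.8% at 50 to 100 TPM, against 25.1% and 20.8% of mid-length genes.

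The narrowing had begun below the length bound. In mid-length genes of up to 1000, up to 2000 and up to 3000 bases, the share over 100 TPM was 36.2%, 28.9% and 20.3%. It was 20.2% in long genes of up to 4000 bases, 12.7% in those of up to 5000 bases and 18.8% above 5000 bases. Genes under 5 TPM made up 11.1%, 11.7% and 6.88% of the 3 mid-length steps, then 6.22%, 2.53% and 2.08% of the 3 steps of long genes. Median levels of the 3 steps of long genes were 49.9 ± 1.68, 48.6 ± 2.54 and 32.8 ± 1.80 TPM, against 60.5 ± 1.20, 49.4 ± 1.16 and 44.5 ± 0.58 TPM in the 3 steps of mid-length genes (SD, n = 3 libraries). Long genes of up to 5000 bases thus had medians above that of the mid-length genes nearest in length. The quartiles over genes overlapped widely, at 21.9 to 61.5 TPM above 5000 bases and 27.0 to 89.5 TPM in long genes of up to 4000 bases, and the steps were not tested against each other. Within the long genes, length and mean TPM had a Spearman rho of -0.10 across 320 genes, given as a description.

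Genes nearest the bound differed widely in level on both sides. The 3 shortest long genes were KL911_000012 (3004 bases), KL911_004580 (3006 bases) and KL911_002385 (3018 bases, a length it shares with KL911_003932, at 465 TPM, and KL911_004914, at 17.7 TPM), with 44.6 ± 2.09, 20.8 ± 1.48 and 67.0 ± 5.65 TPM. Just below the bound, KL911_002814 (2999 bases), KL911_003237 (2988 bases) and KL911_000735 (2987 bases) had 1.58 ± 0.12, 674 ± 67.4 and 15.1 ± 0.34 TPM (SD, n = 3 each).

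Long genes held a larger share of the reads than of the level, which follows from their length because TPM divides counts by it. They took 9.59%, 9.77% and 10.3% of all counts in libraries 1, 4 and 5, but 2.45%, 2.48% and 2.60% of TPM. The mean shares were 9.89% ± 0.37 of counts and 2.51% ± 0.08 of TPM (SD, n = 3). Long genes made up 5.99% of the genes and 17.6% of annotated gene bases. Ranked by counts, 8 long genes were among the 100 highest genes and 55 among the 500 highest. By TPM, 0 were among the 100 highest and 11 among the 500 highest. The 10 highest long genes held 27.5% ± 0.78 of all counts on long genes, and the highest alone held 5.61% ± 0.34.

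The longest gene was KL911_002149, at 278347 to 292919 on chromosome 6 (plus strand) and 14573 bases long. It had 7616, 8794 and 8244 counts in libraries 1, 4 and 5, or 16.0, 14.0 and 16.9 TPM. Next came KL911_001718, on chromosome 4 (minus strand) at 468555 to 480613 (12059 bases), with 20.1, 20.1 and 19.3 TPM. KL911_003556, on chromosome 5 (minus strand) at 484209 to 495311 (11103 bases), had 41.9, 41.1 and 43.9 TPM. KL911_004775, on chromosome 4 (plus strand) at 1092905 to 1102996 (10092 bases), had 60.5, 65.1 and 64.3 TPM. Among these 4 genes the libraries of each stayed apart from those of every other, and the shorter of them were the higher, an order that the next 6 genes did not keep.

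The other 6 of the 10 longest genes were 7362 to 9700 bases long. KL911_001847, on chromosome 4 (minus strand) at 687265 to 694930 (7666 bases), stood out with 196, 201 and 226 TPM and up to 66415 counts. The other 5 had mean levels close together: KL911_001911 had 25.6 ± 2.52, KL911_003607 had 23.0 ± 0.74, KL911_003361 had 22.0 ± 0.92, KL911_000032 had 18.9 ± 1.42 and KL911_001816 had 14.4 ± 0.22 TPM (SD, n = 3). Values of KL911_001911, KL911_003607 and KL911_003361 overlapped between libraries. KL911_001911 was nonetheless above KL911_003607 in each library. KL911_003361 was the highest of them in library 1 and the lowest in libraries 4 and 5, so its place is not settled. In all, 8 of the 10 longest genes lay below the median long gene of 46.4 TPM. On chromosome 4, which held 52 of the 320 long genes, were 5 of the 10, and this was not tested.

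The highest long gene was KL911_003722, on chromosome 6 (minus strand) at 1021906 to 1025049 and only 3144 bases long. It had 178474, 234758 and 213480 counts, or 1736, 1732 and 2034 TPM, and ranked 109th among all genes by TPM. Library 5 was high and the other libraries were nearly equal. The second, KL911_002223, on chromosome 6 (plus strand) at 145844 to 152026 (6183 bases), had 600, 640 and 753 TPM. The third, gene_3625, on chromosome 5 (plus strand) at 919429 to 922761 (3333 bases), had 555, 673 and 565 TPM. The values of these 2 genes overlapped, so their order is not settled by these libraries.

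Ranks 4 to 10 among long genes lay between 415 and 536 TPM, and the libraries of each gene overlapped those of the next. KL911_000914, on chromosome 2 at 534214 to 539865 (5652 bases), had 500, 583 and 526 TPM. KL911_001711, on chromosome 4 at 452554 to 459204 (6651 bases), had 496, 490 and 556 TPM. KL911_005374, on chromosome 3 at 921780 to 927416 (5637 bases), had 453, 514 and 574 TPM. Thus 4 of the 10 highest long genes were over 5000 bases long, although genes of that length had the lowest median. The remaining 4 were KL911_003932 on chromosome 3, KL911_002381 on chromosome 2, KL911_002836 on chromosome 1 and KL911_001483 on chromosome 5, with means of 465, 459, 443 and 415 TPM. Each of the 10 lay over 100 kb from a chromosome end, and their CV between libraries ran from 1.47% to 12%.

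**Figure D3:**
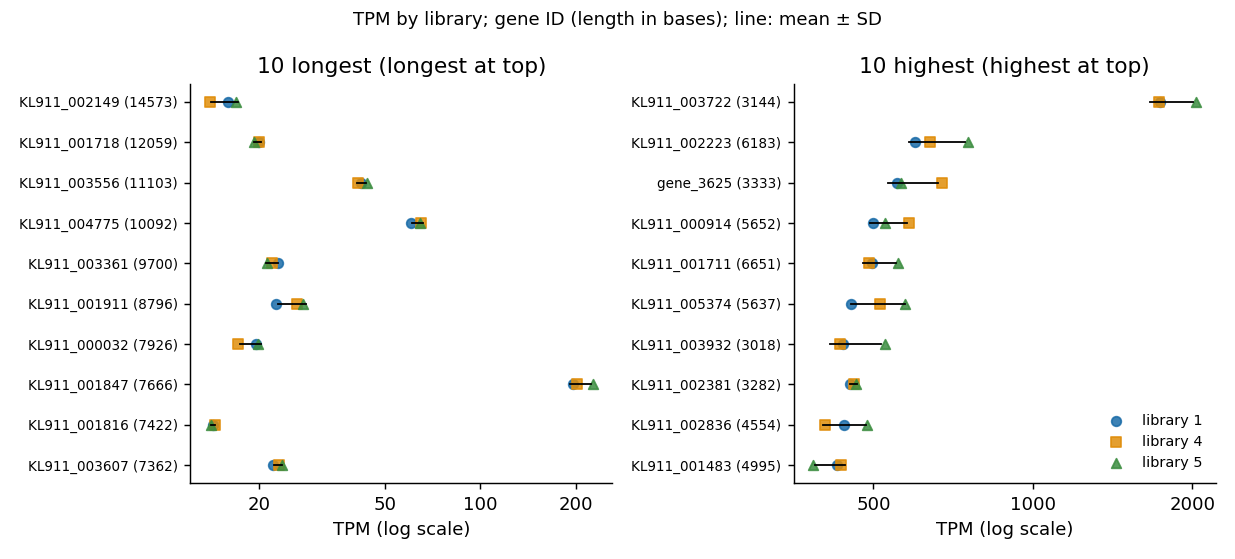
TPM (log scale) of the 10 longest genes (left panel) and the 10 highest long genes (right panel) in libraries 1 (circles), 4 (squares) and 5 (triangles), with a line for mean ± SD and the length in bases after each ID. Among the longest, KL911_001847 stands apart near 200 TPM; among the highest, library 5 was the highest for 7 of 10 genes and library 4 for the other 3.

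The 5 lowest long genes all lay within 52.2 kb of a chromosome end. Distance was taken from the gene edge farther from the end, and the right end was set at the last annotated gene, because no chromosome length was used here. KL911_003008, on chromosome 7 at 48275 to 52186 (3912 bases), had 16, 26 and 12 counts, or 0.125, 0.154 and 0.0919 TPM, and lay 52.2 kb from an end. KL911_005252, on chromosome 4 at 1241054 to 1244989 (3936 bases), had 38, 37 and 9 counts, 43.8 kb from an end. Its 0.295, 0.218 and 0.0685 TPM put library 5 well below the others. KL911_000552, on chromosome 3 at 6272 to 10468 (4197 bases), had 25, 123 and 54 counts, or 0.182, 0.680 and 0.385 TPM, and was the long gene nearest an end, at 10.5 kb. The next, KL911_002998 on chromosome 7 and KL911_002655 on chromosome 2, had 0.505 ± 0.053 and 0.654 ± 0.084 TPM (SD, n = 3), at 32.4 and 21.7 kb. These levels rest on few reads, and reads shared with a near-identical copy elsewhere would be missing from them, which was not tested.

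By that distance, which counts the gene's own length, 3 long genes lay within 20 kb of an end (0.94%), against 130 mid-length genes (2.74%). Besides KL911_000552 these were KL911_002988, on chromosome 7 at 9513 to 13475, with 1.27, 1.21 and 0.627 TPM, and KL911_004128, on chromosome 7 at 947678 to 951538, with 2.66, 2.42 and 2.37 TPM. All 3 were under 5 TPM. Measured to the gene edge nearer the end, 6 long genes (1.88%) and 138 mid-length genes (2.91%) lay within 20 kb, and 4 of these 6 long genes were under 5 TPM. The other 2, KL911_004131 on chromosome 7 and KL911_004441 on chromosome 6, had 12.6 ± 1.80 and 32.2 ± 2.74 TPM (SD, n = 3), with near edges 17.4 and 18.3 kb from an end. By the farther edge again, within 50 kb lay 16 long genes (5.00%) and 350 mid-length genes (7.38%), with medians of 18.0 ± 0.59 and 6.44 ± 0.38 TPM over libraries (SD, n = 3). Under 5 TPM were 7 of these 16 long genes (43.8%) and 168 of the mid-length genes (48.0%). Farther than 50 kb from an end the shares were 8 of 304 long genes (2.63%) and 344 of 4391 mid-length genes (7.83%), so the smaller share of low genes among long genes was also found away from the ends.

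Low long genes away from the ends mostly stood beside highly expressed genes. Farther than 50 kb from an end, 7 of the 8 long genes under 5 TPM had a neighbour over 100 TPM, against 138 of the 344 mid-length genes under 5 TPM (40.1%). Over all genes at that distance the shares were 53.0% of long genes and 52.6% of mid-length genes. The count of 8 is small, the pattern was noticed after the values were seen, and it was not tested. KL911_000061, on chromosome 3 at 790376 to 795862 and 519 kb from an end, had 2.79, 2.53 and 2.22 TPM at 5487 bases, the only gene of over 5000 bases under 5 TPM. Its neighbours had 187 ± 13.4 and 30.3 ± 2.69 TPM. KL911_004062, on chromosome 3 at 1219638 to 1224629, had 2.87, 2.85 and 3.04 TPM beside a gene of 540 bases at 6175 ± 476 TPM (SD, n = 3).

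Chromosome 7 carried few long genes, and they were low. It held 25 long genes among 606 (4.13%), while the other chromosomes ranged from 4.79% on chromosome 2 to 7.02% on chromosome 6. Long genes on chromosome 7 had a median of 20.9 ± 0.84 TPM, against 41.2 to 59.9 TPM on the other 6 chromosomes (SD, n = 3). Mid-length genes had a median of 43.6 TPM on chromosome 7 and of 49.0 to 55.3 TPM on the others. Under 20 TPM lay 12 of the 25 long genes of chromosome 7 (48.0%) and 49 of the 295 on other chromosomes (16.6%); among mid-length genes these shares were 28.6% and 23.1%. Away from the ends by over 50 kb, the 20 long genes left on chromosome 7 had a median of 24.9 TPM, while those of other chromosomes had 42.6 to 61.5 TPM. The chromosome was singled out after its values were seen, and with 25 genes the difference was not tested.

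**Figure D4:**
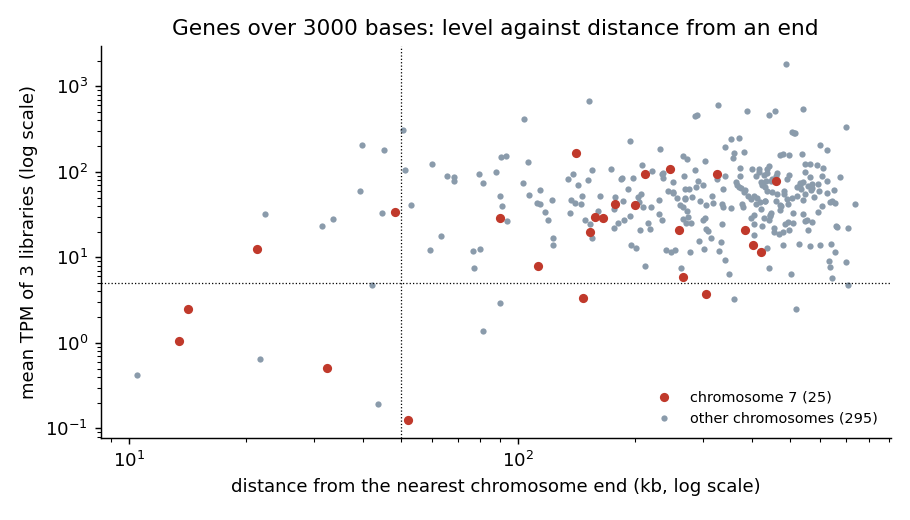
Mean TPM (log scale) of the 320 long genes against distance from the nearest chromosome end (kb, log scale), with chromosome 7 in red (25 genes) and the other chromosomes in grey (295 genes); dotted lines mark 50 kb and 5 TPM. Of 15 long genes under 5 TPM, 7 lay within 50 kb and 6 on chromosome 7.

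Long genes were otherwise spread over the genome without clear order. On the plus strand were 164 long genes (51.2%) and 2386 mid-length genes (50.3%). No long gene overlapped a neighbour. Another long gene was next to 46 long genes (14.4%) and to 531 mid-length genes (11.2%). The longest runs held 3 genes each. One lay on chromosome 3 at 1020729 to 1032106 (KL911_003932, KL911_003933 and KL911_003934), with levels of 50.9 to 465 TPM. The other lay on chromosome 5 at 167435 to 185152 (KL911_003361, KL911_003362 and KL911_003363), with 22.0 to 83.7 TPM. Over the 24 pairs of adjacent long genes the levels differed by a median of 1.95-fold and by up to 38-fold.

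Highly expressed long genes had longer gaps before them. The median gap from the 5′ edge to the neighbouring gene was 176 bases for long genes and 150 bases for mid-length genes. By level it was 282.5 bases for the 58 long genes over 100 TPM, 166 bases for the 201 at 20 to 100 TPM and 127 bases for the 61 under 20 TPM. Mid-length genes had 186, 130 and 160 bases in these 3 ranges. Across genes, the gap and the mean TPM had a Spearman rho of 0.27 over 320 long genes and 0.10 over 4733 mid-length genes, as descriptions of genes that are not independent. Gaps on the 3′ side were alike, with medians of 75 and 72 bases for long and mid-length genes.

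The spread between libraries was smaller in long genes. The CV of TPM over the 3 libraries had a median of 6.01% in long genes and 7.49% in mid-length genes. A CV over 20% was found for 14 long genes (4.38%) and 578 mid-length genes (12.2%). The difference of -1.48 percentage points was -1.87 without library 1, -0.87 without library 4 and -0.53 without library 5. Counting error alone would give a median CV of 1.20% in long genes and 2.07% in mid-length genes, taking reads as independent, which PCR copies are not. At like levels the medians still differed, with 5.53% in 109 long genes and 7.52% in 1191 mid-length genes at 20 to 50 TPM. At 50 to 100 TPM they were 5.47% in 92 and 6.46% in 984. Like levels are not like counts. The median mean count was 4969 in long and 1504 in mid-length genes at 20 to 50 TPM, and 9710 and 3078 at 50 to 100 TPM. The edgeR dispersion, as a biological coefficient of variation, had medians of 0.082 and 0.094. By length, the median CV was 7.73%, 7.48% and 6.97% in the 3 steps of mid-length genes. It was 6.02%, 5.64% and 6.70% in the 3 steps of long genes. The fall in CV thus began below the bound and did not continue above 5000 bases. A CV over 3 values is imprecise for any single gene.

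Spread beyond counting error was tested by chi-square on counts with TMM-scaled library sizes among genes with a mean of at least 10 CPM (counts scaled to the library size), adjusted over all 4578 genes tested. Of the 320 long genes, 312 entered the test and 8 were too low. Beyond counting error at an adjusted p under 0.05 were 281 long genes (90.1%), where the share over all tested genes was 81.5%. This test passes more readily with more counts: with each gene above the median length thinned to that length, 216 of 294 long genes passed (73.5%), against 77.6% of all genes tested.

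Large differences between libraries were rare. A highest-to-lowest ratio of at least 2 with an adjusted p under 0.05 was found for 1 long gene of 312, where 0.612% of all tested genes were called and 25 of 4063 mid-length genes. At a ratio of at least 1.5 there were 7 long genes (2.24%), with 3.8% called over all tested genes and 159 mid-length genes (3.91%). The 1 gene past a ratio of 2 was KL911_004883, on chromosome 4 (plus strand) at 925203 to 928754 (3552 bases). It had 309, 778 and 240 counts in libraries 1, 4 and 5, or 2.66, 5.08 and 2.02 TPM, a 2.53-fold ratio in CPM (chi-square with Benjamini-Hochberg adjustment, adjusted p = 8.52e-47). Library 4 was high, and without library 4 or without library 5 no long gene passed. The gene to its left, KL911_005405 on the same strand at 923836 to 924518, had 4, 79 and 11 counts and was also highest in library 4. The gene to its right, at 928904 to 929527, had 998, 680 and 737 TPM and was highest in library 1. Among the 8 long genes too low for the test, 3 had ratios over 2, up to 4.26 for KL911_005252.

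The next in ratio were KL911_004204 on chromosome 7, with 15.6, 8.97 and 11.3 CPM, and KL911_003177 on chromosome 7, with 9.25, 15.3 and 10.6 CPM. KL911_003456, on chromosome 5 at 327576 to 334670 and 7095 bases long, had 161, 135 and 209 CPM. By CPM, 4 of the 7 genes past 1.5-fold were highest in library 4, 2 in library 5 and 1 in library 1, so no library accounted for all of them.

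A small difference between libraries 5 and 1 moved with gene length. Among genes of at least 5 TPM, the median log2 ratio of TPM in library 5 over library 1 was 0.053 in long genes and -0.015 in mid-length genes. By length it was -0.02, -0.02 and -0.004 in the 3 steps of mid-length genes, then 0.039, 0.072 and 0.085 in long genes of up to 4000, up to 5000 and over 5000 bases. For library 4 over library 1 the medians of the 3 steps of long genes were 0.005, -0.02 and 0.036, without an even trend. For library 5 over library 4 they were 0.026, 0.046 and 0.019, so against library 4 the ratio did not keep rising with length. Of all 320 long genes, 146 were highest in library 5 (45.6%), 83 in library 4 (25.9%) and 91 in library 1 (28.4%). In mid-length genes these shares were 35.6%, 28.5% and 35.9%. Library 5 also had the largest share of counts on long genes, 10.3%, against 9.77% in library 4 and 9.59% in library 1. The difference between libraries is small beside the range of levels between genes, and its cause was not tested.

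**Figure D5:**
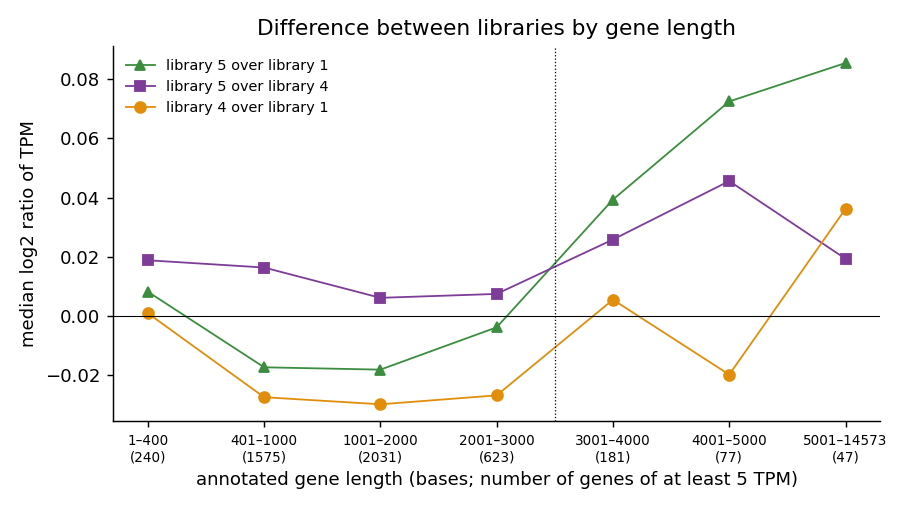
Median log2 ratio of TPM between pairs of libraries for genes of at least 5 TPM, by annotated length from shortest to longest, with the number of genes under each step; the dotted line marks 3000 bases. Library 5 over library 1 (triangles) lies at or below 0.01 up to 3000 bases and reaches 0.085 above 5000 bases, while library 5 over library 4 (squares) and library 4 over library 1 (circles) show no even trend.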

How the data were processed

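The authors deposited read counts per gene for each library and a joint table of counts, gene positions, lengths and TPM. Per the file headers, the deposited counts were made with featureCounts 2.0.1 over gene features with strand setting 1, the paired-end option and no option to count multi-mapping reads, although the labels describe single-end reads. HISAT2 2.2.1 and HTSeq are named in the submitters' processing notes, with no role given. The genome build is not given in the sources used here. Coordinates are those of the files. The authors' TPM values were used as deposited; recomputed from counts and lengths they were equal within 1% for all 320 long genes. Unused per-sample columns numbered 0.

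CV is the SD over the mean of TPM. Chi-square calls used TMM factors from edgeR 4.0.16 in R 4.3.3; DESeq2 1.42.0 size factors were an alternative. Both the chi-square calls and the dispersion estimate were tested on simulated data. For the chi-square calls the simulated spread was counting error alone, apart from genes changed on purpose. That simulation therefore cannot show how the calls behave where the spread is wider, as in most tested genes here. Tables were handled with pandas 2.3.3 and numpy 2.4.6 in Python 3.11.15, statistics with scipy 1.17.1 and figures with matplotlib 3.10.9. Locus tags of the RefSeq assembly ASM1920728v1 matched 315 long genes and gave 0 names, so the planned function groups and sequence features were not run.

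Genes were named by rule: the 10 longest, 10 highest and 5 lowest long genes, those varying 2-fold, those within 20 kb of an end, the longest runs and the genes nearest the bound. KL911_000061, KL911_004062, KL911_004204, KL911_003177, KL911_003456, KL911_004131, KL911_004441 and KL911_004914, and the neighbours of named genes, were chosen after their values were seen. The members and all settings were chosen with earlier results of these data known. Genes are not replicates, so no test over genes was made between length classes. Median levels, shares under 5 and over 100 TPM, and shares of counts and TPM were compared per library over 3 libraries. Other comparisons, such as percentile ranges, CVs, gaps and positions, are single values per class.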

Additional observations from a re-analysis of the deposited data

How the results depend on the processing

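Settings on chromosome 7, on the nearer gene edge, on the highest long gene and on thinning of the test beyond counting error were chosen after seeing the data. The level difference of long minus mid-length genes stayed negative under every setting run. It was -0.25 for genes over 4000 bases and -0.018 against genes of over 1000 and up to 3000 bases. Among genes with at least 10 counts in each library it was -0.19, and with 1 library left out -0.15 to -0.11. No setting used genes of 2001 to 3000 bases alone, whose median of 44.5 TPM was below the 47.2 TPM of long genes. The negative sign is therefore not shown against the genes nearest in length. For genes over 4000 bases, the share under 5 TPM was 2.36%, the share over 100 TPM 15.0%, the share of all counts 4.81%, and 0 genes varied 2-fold. Other bounds fix the direction in which a share moves, but not its value. With them, 1.56% of long genes lay under 1 TPM and 0.31% over 1000 TPM. By the farther gene edge, 0% lay within 10 kb and 5.00% within 50 kb of an end. By the nearer edge the shares within 10, 20 and 50 kb were 0.63%, 1.88% and 6.25%. Long genes held 2.51% of TPM, and 9.34% of counts without the highest long gene. Leaving out 1 library gave 4.69% under 5 TPM in each case, 17.5% to 17.8% over 100 TPM and 9.68% to 10.0% of counts. Without chromosome 7 the level difference of long minus mid-length genes was -0.096, and 19.0% of long genes were over 100 TPM. The count of 1 gene varying 2-fold became 7 at a ratio of 1.5, 3 at a mean of at least 1 CPM and 0 with counts thinned to the median gene length of 1197 bases, which takes that gene below the CPM minimum. It was 0 to 1 with 1 library left out. The difference in median CV of -1.48 percentage points stayed negative, from -1.87 to -0.53 with 1 library left out, and was smallest without library 5. No comparison of conditions, paired or unpaired, was possible because all samples form 1 group. Depth limits only the lowest long genes, where 9 to 123 counts lie behind the 3 lowest levels.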

Other observations

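Of the 315 long genes matched by locus tag, 306 had the same length in the RefSeq assembly ASM1920728v1. The largest differences were KL911_003746 (4334 bases in the files and 3567 in RefSeq) and KL911_000012 (3004 and 3333 bases). The longest gene, KL911_002149, differed by a single base (14573 and 14574). The 5 unmatched long genes lay on chromosomes 4 and 5, with mean levels of 31.1 to 598 TPM. They include gene_3625, among the 3 highest long genes. The 23 long genes whose length is no multiple of 3 ranged from 7.59 to 208 TPM, with a median of 41.1 TPM, and the other long genes had a median of 46.5 TPM. In the other direction, RefSeq held 325 genes of over 3000 bases. Of these, 7 were not among the genes measured here and 3 had a deposited length of 3000 bases or less.

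The 7 longest gaps between neighbouring genes, each over 8 kb, lay 1 on each chromosome. Of the 70 genes within 5 of such a gap, 3 were long, with mean levels of 62.9 to 598 TPM and a median of 94.7 TPM.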
